A study of Homo sapiens with 8 samples.

Results

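The genes described here are 41 genes whose products copy DNA in S phase, measured in H9 human embryonic stem cells and in cells sorted from them during haematopoietic differentiation. Each gene was read from the Affymetrix probe sets annotated to its symbol alone, of which the brightest on average was kept, with names ending in _x_at used only for ORC6, which had no other. All 41 listed genes were found, among 19775 genes with such a probe set, and all 41 were among the 13647 genes tested. No member lay below the median of any array. Of the members, 18 had 1 probe set and 23 had several.

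Cells of the H9 line at day 0 were undifferentiated and unsorted. The other 3 groups were cells positive for KDR and CD31, surface proteins of endothelial and early blood-forming cells, isolated by FACS after 4, 6 and 8 days in StemPro34 serum-free medium whose listed additions include BMP-4 and monothioglycerol. Every group held 2 arrays that the titles call biological replicates, and the line, before differentiation, was kept on mitotically inactivated mouse fibroblast feeder layers. H9 is 1 line, and day and sort change together between day 0 and the later groups. Nothing in the labels says whether replicates came from separate cultures, so the p-values measure the spread between these arrays. The source name of 3 samples of day 6 and day 8 says day 4, while title, description and stage give the later day, which was used. On each sorted day 11 of 11 endothelial markers, the gate genes included, rose and 8 of 8 pluripotency markers fell. Of all genes tested, 8.52%, 9.73% and 10.4% rose at day 4, day 6 and day 8, and 9.91%, 13.6% and 14.1% fell. Testing required 2 or more arrays with the gene over their median. CDH5, PECAM1, TIE1, ERG, ESAM and ROBO4 met this through sorted arrays alone, as did SPN, KLF1 and MPO (blood) and FGB (endoderm). NANOG, USP44 and ZFP42 met it through day 0 alone. That rule fixed the direction of any call of these genes, which lends no support to a change. Among markers that the gate does not use, endoderm and blood markers had positive median differences from day 0 on each sorted day. The 7 stromal markers had medians of -0.43, -0.83 and -0.73 at day 4, day 6 and day 8, and 3 of them fell on each day. The 6 tested endoderm markers had median differences from day 0 of 2.38, 0.60 and 2.45 on the log2 scale at day 4, day 6 and day 8. Of these 1 rose, at day 8, and on replicate 1 of day 6 all 6 lay below both day 0 arrays. Among 7 tested blood markers 4 rose at day 8, while PTPRC, the pan-leukocyte gene, stayed below the array median on all 8 arrays.

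Replication starts when the origin recognition complex, with CDC6 and CDT1, loads the ring of MCM2 to MCM7 onto DNA in G1, a step called licensing. In S phase CDC45 and the GINS complex join MCM to form the active helicase, RFC loads the PCNA clamp, polymerases alpha, delta and epsilon copy the strands, RPA covers single strands, and FEN1 and LIG1 join the pieces of the lagging strand. Many of these genes are switched on by E2F transcription factors as cells enter S phase, so their RNA is commonly read as a sign of cycling. Pluripotent stem cells are known for a short G1 and a large share of cells in S phase. An array of bulk RNA cannot tell fewer cells in S phase from less of these RNAs in each cell.

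Because E2F control is the textbook link among these genes, their promoters were searched for the E2F letters TTTCCCGC, TTTCGCGC, TTTGCCGC and TTTGGCGC on both strands. The RefSeq table on GRCh38.p14 gave a window of 300 bases, 250 before and 50 after the start, for 35 of 41 members, and none for MCM4, MCM5, GINS4, POLD3, RPA2 and RPA3. The letters occurred in 20 of 35 member windows (57.1%) and in 1090 of 27305 genes with a window (3.99%). In the 250 bases before the start alone they occurred in 15 of 35 (42.9%) and in 3.4% of all genes. The CHR letters TTTGAA and TTCGAA, a short element found at many mitotic genes, occurred in 2 of 35 members (5.71%), MCM6 and RRM1, and in 19.5% of all genes. A gene was counted once, when any of its windows held the letters on either strand. A match is a run of letters and not a measured binding site.

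The 250 bases before the start of 6 members are shown because they cover the main forms of the match, in genes that fell (MCM3, PCNA, CDT1), genes that did not pass the test on the probe set used (MCM6, MCM7) and the 1 member that read higher on every sorted array (TYMS). They run 5′ to 3′ on the gene's strand in lower case, with the E2F letters in capitals. Their positions on GRCh38.p14 are chr6:52284743-52284992, minus strand for MCM3, chr20:5126623-5126872, minus strand for PCNA, chr16:88803539-88803788, plus strand for CDT1, chr2:135876444-135876693, minus strand for MCM6, chr7:100101398-100101647, minus strand for MCM7 and chr18:657403-657652, plus strand for TYMS.
MCM3: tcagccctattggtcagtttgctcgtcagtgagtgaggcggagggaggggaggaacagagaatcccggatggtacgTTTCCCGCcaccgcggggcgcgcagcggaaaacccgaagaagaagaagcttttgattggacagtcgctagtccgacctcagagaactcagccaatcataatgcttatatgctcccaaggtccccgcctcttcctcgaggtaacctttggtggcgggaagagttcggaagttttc
PCNA: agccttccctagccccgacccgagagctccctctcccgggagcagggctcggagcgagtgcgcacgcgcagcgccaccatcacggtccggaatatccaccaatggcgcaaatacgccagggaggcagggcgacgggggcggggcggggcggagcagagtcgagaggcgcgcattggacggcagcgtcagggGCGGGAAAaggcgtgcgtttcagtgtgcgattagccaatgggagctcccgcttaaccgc
CDT1: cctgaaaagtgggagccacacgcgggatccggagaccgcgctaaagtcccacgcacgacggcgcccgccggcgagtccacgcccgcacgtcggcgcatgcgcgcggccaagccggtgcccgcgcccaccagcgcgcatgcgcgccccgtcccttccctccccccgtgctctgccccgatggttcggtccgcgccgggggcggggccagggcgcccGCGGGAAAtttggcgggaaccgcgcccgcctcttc
MCM6: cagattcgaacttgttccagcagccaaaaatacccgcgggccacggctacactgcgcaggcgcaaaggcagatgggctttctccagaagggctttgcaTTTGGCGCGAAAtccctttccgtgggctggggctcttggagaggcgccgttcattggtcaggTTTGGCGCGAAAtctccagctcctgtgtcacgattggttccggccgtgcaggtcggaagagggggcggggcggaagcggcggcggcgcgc
MCM7: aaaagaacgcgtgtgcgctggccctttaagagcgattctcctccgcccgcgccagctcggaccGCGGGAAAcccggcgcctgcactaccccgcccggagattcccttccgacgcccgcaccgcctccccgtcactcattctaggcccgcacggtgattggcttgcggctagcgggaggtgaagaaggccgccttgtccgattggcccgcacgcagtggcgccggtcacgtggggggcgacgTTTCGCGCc
TYMS: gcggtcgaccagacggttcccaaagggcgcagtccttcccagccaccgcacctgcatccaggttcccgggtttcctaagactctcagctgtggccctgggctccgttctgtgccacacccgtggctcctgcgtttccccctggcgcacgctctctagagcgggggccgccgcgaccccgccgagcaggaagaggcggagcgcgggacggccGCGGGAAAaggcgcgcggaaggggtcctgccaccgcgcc

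MCM6 carried 4 matches, which overlap in pairs because a match to TTTGGCGC on the gene's strand overlaps a match to TTTCGCGC on the opposite strand. The first bases of these matches lay 152, 148, 90 and 86 bases before the start. MCM7 held 2 matches, at 187 and 9 bases before the start. The others held a single match in the printed stretch, at 174 bases for MCM3, 59 for PCNA, 39 for TYMS and 35 for CDT1. The median differences were of like size in members with and without the letters. That of day 8 from day 0 was -0.86 on the log2 scale over the 20 members that hold the letters and -0.88 over the 15 that do not. The 6 members without a window are in neither group, among them GINS4 and RPA3, which had the largest day 8 differences of all members. Among members called at day 8, 6 of 8 with a window held them, and among the others 14 of 27 did.

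The question put to the arrays was whether these genes change from undifferentiated cells to sorted cells and between the sorted days. Levels below are log2(intensity + 32) of 1 probe set, given for replicate 1 and then replicate 2, and they are not compared between genes, whose probes differ. Differences are sorted minus day 0 on that scale ± the SE of the fit, a called gene has an adjusted p under 0.05 over all genes tested, and "fell" and "rose" are kept for called genes.

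Every member that passed the test was lower in sorted cells than at day 0. Of the 41 members 3 fell at day 4 (ORC2, MCM4 and GINS4), beside 9.91% of all genes tested that fell, and none rose, beside 8.52% of all genes that did. At day 6, 6 members fell (ORC2, CDT1, MCM4, GINS4, RPA2 and LIG1), beside 13.6% of all genes lower and 9.73% higher. At day 8, 11 fell (ORC1, ORC2, ORC3, CDC6, CDT1, MCM3, MCM4, GINS1, GINS4, PCNA and RPA2), beside 14.1% of all genes lower and 10.4% higher. The shares of members at day 4 and day 6 lie close to those backgrounds, and the share at day 8 lies above its own, a difference that was not tested. In the mean of the 3 sorted groups 11 members fell, those of day 8, beside 16.9% of all genes lower and 13.4% higher. Without replicate 1 of day 0 these 4 counts were 1, 1, 2 and 2, and without its replicate 2 they were 1, 2, 2 and 2. The day 8 count was 3 or 2 without replicate 1 or 2 of day 8, 16 without either array of day 6, and 31 in a fit of the day 0 and day 8 arrays alone. The day 4 count was 1 without replicate 2 of day 4 and 5 or 6 without an array of day 6 or replicate 1 of day 4, and the day 6 count was 16 without replicate 1 of day 6 and 10 without either array of day 4. The share of all genes called also moves with the arrays fitted and is not given for these refits. Their counts show how the calls depend on the arrays and are no result about the members.

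Most members outside the calls were lower than day 0 as well. The members' median difference from day 0 was -0.45 at day 4, -0.69 at day 6 and -0.88 at day 8, where the median of all genes tested was 0.02, -0.03 and -0.03. A negative difference was found in 36, 38 and 38 members, beside 48.1%, 52.4% and 53.1% of all genes. Both sorted arrays lay below both day 0 arrays in 19 members at day 4, 29 at day 6 and 36 at day 8, while 31.8%, 35.5% and 42.5% of all genes tested did so. All 3 comparisons use the same 2 day 0 arrays, so they are not independent of each other.

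**Figure D1:**
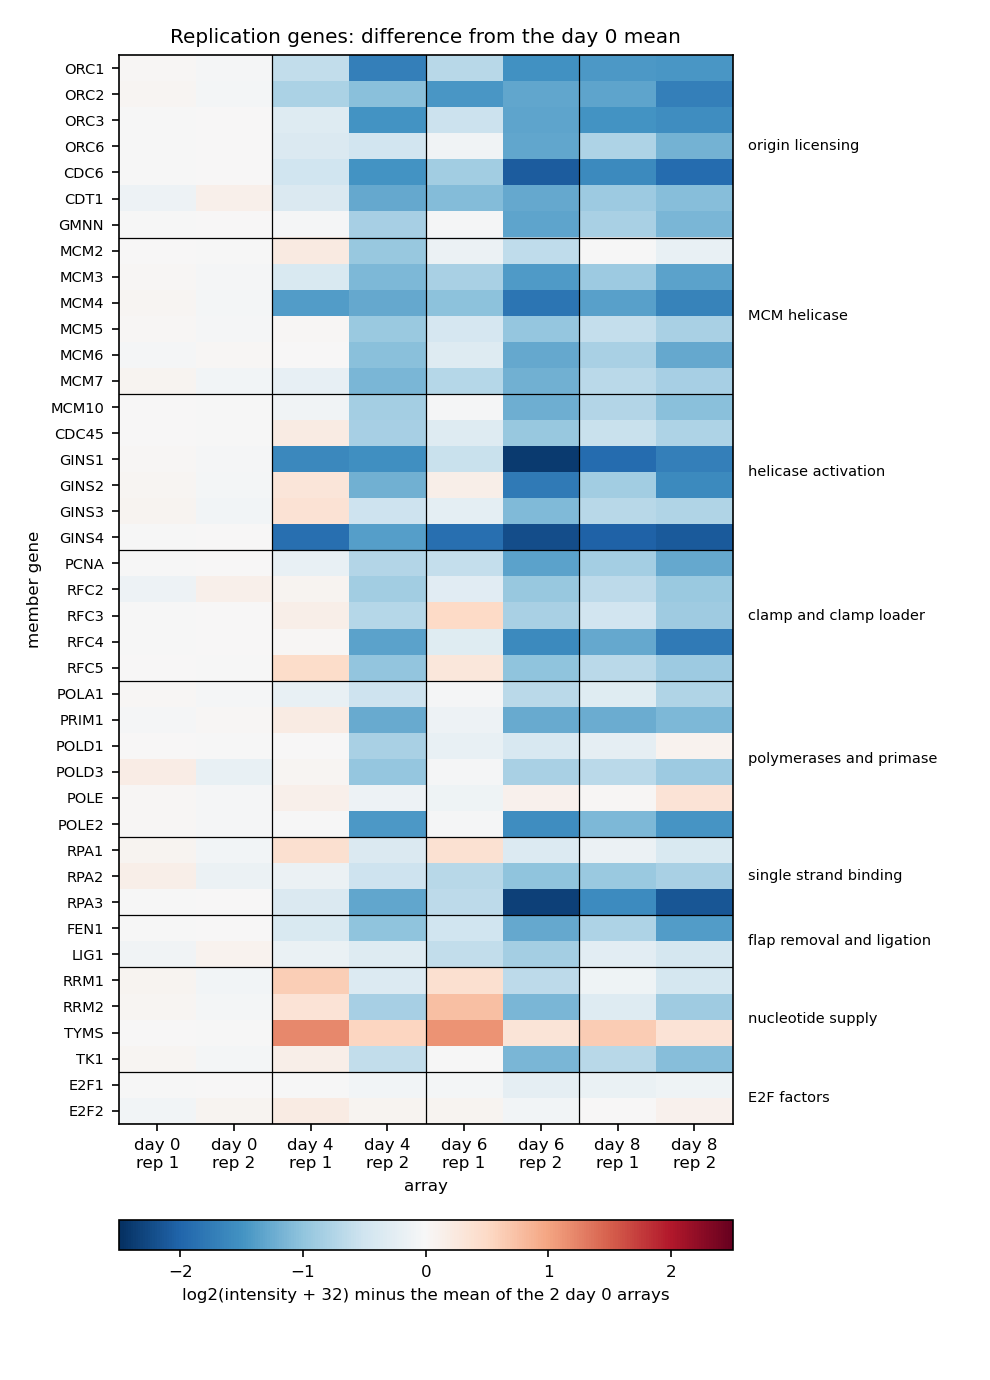
Each row is 1 of the 41 members, grouped by role, and each column 1 of the 8 arrays; colour gives log2(intensity + 32) minus the mean of the 2 day 0 arrays, blue for lower. The columns of replicate 2 of day 4, replicate 2 of day 6 and both arrays of day 8 are mostly blue, with medians of -0.93, -1.19, -0.73 and -1.04, while replicate 1 of day 6 has a median of -0.24 and replicate 1 of day 4 is close to day 0.

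Licensing factors, the largest group, had the most calls, and 5 of 7 fell at day 8 with a median of -1.44, beside 14.1% of all genes tested. Of these 5 only ORC2 kept its day 8 call under every setting run, and differences between groups were not tested. ORC2, a core subunit of the origin recognition complex (probe set 204853_at), read 10.01 and 9.89 (day 0), 9.16 and 8.91 (day 4), 8.49 and 8.66 (day 6) and 8.62 and 8.25 (day 8). All 6 sorted arrays lay below both day 0 arrays, and the gene fell on each day, by 1.88-fold at day 4 (-0.91 ± 0.20, limma's adjusted p = 0.0205), 2.59-fold at day 6 (-1.38 ± 0.20, limma's adjusted p = 0.0035) and 2.85-fold at day 8 (-1.51 ± 0.20, limma's adjusted p = 0.00232). A second ORC2 probe set (235423_at) was lower by less, with -0.68 ± 0.22, -0.27 ± 0.22 and -0.64 ± 0.22 on the 3 days, and passed on none of them when probe sets were tested on their own (limma's adjusted p 0.0908 at day 8).

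ORC1, the subunit that rises and is degraded with each cycle (probe set 205085_at), read 8.86 and 8.80 (day 0), 8.21 and 7.12 (day 4), 8.14 and 7.33 (day 6) and 7.40 and 7.38 (day 8). Its 2 day 8 arrays nearly coincide, while each of the other sorted days has a higher first and a lower second array. ORC1 fell at day 8, with a difference of -1.44 ± 0.39 (limma's adjusted p = 0.0365), and its differences of -1.16 ± 0.39 at day 4 and -1.10 ± 0.39 at day 6 did not pass (limma's adjusted p 0.0858 and 0.0863). ORC3, another subunit of the complex (probe set 210028_s_at), read 11.07 and 11.09 (day 0), 10.76 and 9.58 (day 4), 10.55 and 9.77 (day 6) and 9.59 and 9.53 (day 8). It has the same shape as ORC1 and fell at day 8, with a difference of -1.52 ± 0.41 (limma's adjusted p = 0.0382).

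CDC6, which loads the MCM ring together with ORC (probe set 203968_s_at), read 9.71 and 9.73 (day 0), 9.22 and 8.22 (day 4), 8.85 and 7.63 (day 6) and 8.12 and 7.80 (day 8). The sorted groups lie below day 0 without overlap, and CDC6 fell 3.39-fold at day 8 (-1.76 ± 0.46, limma's adjusted p = 0.0327). CDT1, the other loading factor (probe set 209832_s_at), read 8.22 and 8.48 (day 0), 7.99 and 7.07 (day 4), 7.27 and 7.07 (day 6) and 7.44 and 7.27 (day 8). It fell at day 6 and day 8, with differences of -1.18 ± 0.29 and -0.99 ± 0.29 (limma's adjusted p 0.0274 and 0.0472). Replicate 1 of day 4 is the 1 sorted array near day 0. Second probe sets of CDC6 (203967_at) and CDT1 (228868_x_at), tested on their own, passed in no comparison, with -1.68 ± 0.61 and -0.79 ± 0.45 at day 8 (limma's adjusted p 0.0989 and 0.266). GMNN, which encodes geminin, the inhibitor of CDT1, read 12.47 and 12.50 (day 0), 12.46 and 11.66 (day 4), 12.47 and 11.17 (day 6) and 11.68 and 11.34 (day 8). Its first arrays of day 4 and day 6 equal day 0 and its second arrays lie well below, and no comparison passed (-0.98 ± 0.44 at day 8, limma's adjusted p = 0.155). ORC6, the remaining licensing gene, was -0.98 at day 8 and did not pass.

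Of the 6 subunits of the MCM ring 2 fell at day 8, with a median of -0.90 for the group. MCM4 (probe set 222036_s_at) read 11.25 and 11.14 (day 0), 9.80 and 9.91 (day 4), 10.17 and 9.36 (day 6) and 9.84 and 9.52 (day 8). All sorted arrays, the first ones included, lie well below day 0 in this gene. It fell on every day, with differences of -1.34 ± 0.28 at day 4, -1.43 ± 0.28 at day 6 and -1.52 ± 0.28 at day 8 (limma's adjusted p 0.0187, 0.0128 and 0.00992). Tested on their own, the 3 of 5 MCM4 probe sets above the filter fell at day 8. MCM3 (probe set 201555_at) read 11.25 and 11.20 (day 0), 10.85 and 10.09 (day 4), 10.42 and 9.80 (day 6) and 10.31 and 9.88 (day 8), and fell at day 8, with a difference of -1.13 ± 0.33 (limma's adjusted p = 0.047), with day 6 just outside the threshold (limma's adjusted p = 0.0502). MCM2 read 11.93 and 11.89 (day 0), 12.13 and 10.96 (day 4), 11.77 and 11.27 (day 6) and 11.90 and 11.73 (day 8). Here 1 day 8 array lies between the day 0 values, the second arrays of day 4 and day 6 are the lowest, and the difference at day 8 was -0.10 ± 0.37 (limma's adjusted p = 0.881). MCM5, MCM6 and MCM7 had day 8 differences between -1.05 and -0.70 and did not pass on the probe sets used. A dim second MCM6 probe set (238977_at) lay above the array median only on the 2 day 0 arrays. It thus passed the filter only through the group where it read high. Its calls as lower on all 3 days, when tested on its own, therefore lend no support to a fall of MCM6. The differences of this probe set were -0.88 ± 0.19, -0.78 ± 0.19 and -0.96 ± 0.19. The subunits, which work as 1 ring in a fixed ratio of proteins, ranged from -1.52 to -0.10 at day 8 in RNA.

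Helicase activation held the member with the smallest p. GINS4, a subunit of the GINS complex (probe set 211767_at), read 9.34 and 9.37 (day 0), 7.46 and 7.97 (day 4), 7.47 and 7.13 (day 6) and 7.34 and 7.26 (day 8). The sorted arrays lie in 1 low band on all 3 days, and the gene fell 3.12-fold at day 4 (-1.64 ± 0.20), 4.16-fold at day 6 (-2.05 ± 0.20) and 4.16-fold at day 8 (-2.06 ± 0.20), with limma's adjusted p of 0.00214, 0.000717 and 0.000699. The other GINS4 probe set above the filter (235029_at) was dim, above the array median on 4 of 8 arrays, and passed on no day. Its differences were -0.23 ± 0.28, -0.0037 ± 0.28 and -0.36 ± 0.28 (limma's adjusted p 0.643, 0.995 and 0.401).

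GINS1 (probe set 206102_at) read 11.93 and 11.86 (day 0), 10.27 and 10.36 (day 4), 11.34 and 9.49 (day 6) and 9.97 and 10.18 (day 8). Replicate 1 of day 6 stands 1.84 above its partner, the other sorted arrays lie between 9.49 and 10.36, and GINS1 fell at day 8, with a difference of -1.82 ± 0.53 (limma's adjusted p = 0.0463). GINS2 read 11.36 and 11.27 (day 0), 11.62 and 10.11 (day 4), 11.46 and 9.55 (day 6) and 10.44 and 9.72 (day 8). It had the widest gap of any member between the arrays of a day, 1.91 at day 6, and its day 8 difference of -1.23 ± 0.70 did not pass (limma's adjusted p = 0.245). The GINS2 probe sets disagreed in sign at day 8. The others (1557595_at and 243136_at), tested on their own, were 0.07 ± 0.18 and -0.17 ± 0.33 there and passed on no day. MCM10, CDC45 and GINS3 were between -0.88 and -0.66 at day 8 and did not pass either.

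**Figure D2:**
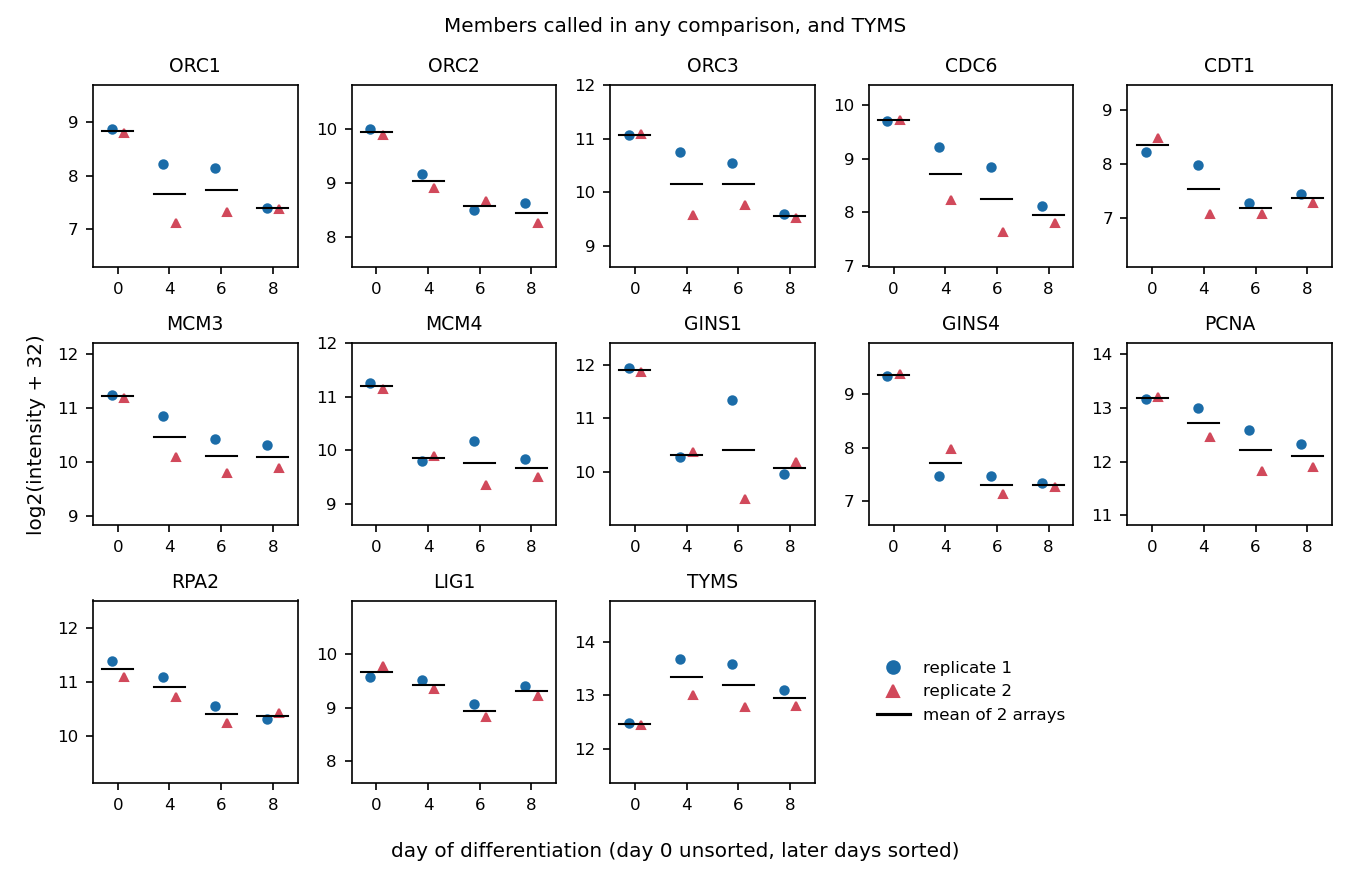
Each panel shows 1 of the 12 members called in any comparison, or TYMS, with log2(intensity + 32) on the vertical axis and day on the horizontal; circles are replicate 1, triangles replicate 2 and lines the mean of the 2 arrays, and every panel spans the same range. GINS4, ORC2 and MCM4 are low on all sorted arrays, CDC6, ORC1 and ORC3 show the higher first arrays of day 4 and day 6, and TYMS lies above day 0 on every sorted array.

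PCNA, the sliding clamp that holds polymerases on DNA (probe set 201202_at), was the 1 gene of the clamp and its loader that fell at day 8, where the group of 5 had a median of -0.79. It read 13.16 and 13.19 (day 0), 12.99 and 12.45 (day 4), 12.59 and 11.83 (day 6) and 12.32 and 11.89 (day 8). Every sorted array was below both day 0 arrays, and the day 8 difference was -1.07 ± 0.30 (2.10-fold, limma's adjusted p = 0.0436). RFC4, a subunit of the clamp loader, read 11.51 and 11.54 (day 0), 11.56 and 10.18 (day 4), 11.22 and 9.93 (day 6) and 10.23 and 9.76 (day 8). It was 2.88-fold lower at day 8, but with the wide gaps at day 4 and day 6 the SE was 0.55 and it did not pass (limma's adjusted p = 0.0857). RFC5 read 10.57 and 10.54 (day 0), 11.01 and 9.58 (day 4), 10.83 and 9.55 (day 6) and 9.88 and 9.65 (day 8). Its first arrays of day 4 and day 6 are above day 0 and its second arrays below, with a gap of 1.44 at day 4, and the day 8 difference of -0.79 ± 0.55 did not pass (limma's adjusted p = 0.335). A second RFC5 probe set (203210_s_at), tested on its own, fell at day 8, with a difference of -1.39 ± 0.24 (limma's adjusted p = 0.00821). It was dim, above the array median on 5 of 8 arrays and below it on both day 8 arrays, so the size of its fall is uncertain. The remaining RFC5 probe set above the filter (213734_at) was -0.10 ± 0.28 at day 8 (limma's adjusted p = 0.835). RFC2 and RFC3, further subunits of the loader, were -0.79 and -0.69 at day 8. The RFC3 probe sets disagreed. One (204128_s_at), tested on its own, fell at day 6 and day 8, with differences of -1.41 ± 0.38 and -1.43 ± 0.38 (limma's adjusted p 0.0449 and 0.0418), and another (231119_at) was -0.031 ± 0.39 at day 8 and passed on no day.

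None of the 6 polymerase and primase genes passed on any day, with a median of -0.66 at day 8. POLE2, the second subunit of polymerase epsilon, read 10.78 and 10.70 (day 0), 10.72 and 9.30 (day 4), 10.70 and 9.18 (day 6) and 9.63 and 9.26 (day 8). PRIM1, the catalytic subunit of primase, read 11.17 and 11.22 (day 0), 11.40 and 9.93 (day 4), 11.07 and 9.93 (day 6) and 9.96 and 10.08 (day 8). Both were low at day 8 and on the second arrays of day 4 and day 6, near day 0 on the first arrays, and their day 8 differences of -1.30 ± 0.59 and -1.18 ± 0.53 did not pass (limma's adjusted p 0.157 and 0.149). Of the catalytic polymerase subunits, POLE was 0.19 ± 0.19 and POLD1 -0.07 ± 0.29 at day 8, with 95% intervals of -0.26 to 0.64 and -0.76 to 0.61. Differences between subunits were not tested. POLA1, catalytic in polymerase alpha, and POLD3, an accessory subunit of polymerase delta, were -0.52 and -0.79. A second POLD3 probe set (239816_at) was higher than day 0, by 0.38 ± 0.13, 0.42 ± 0.13 and 0.41 ± 0.13 on the 3 days. Tested on its own it rose in the mean of the sorted groups (limma's adjusted p = 0.0358) but on no single day. This dim probe set lay above the array median on 5 of 8 arrays, all of them sorted. It thus passed the filter only through the groups where it read high. The filter fixed the direction of its call, which lends no support to a rise of POLD3.

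Among the subunits of RPA, which covers single-stranded DNA, RPA2 passed. RPA2 (probe set 201756_at) read 11.40 and 11.11 (day 0), 11.10 and 10.73 (day 4), 10.56 and 10.24 (day 6) and 10.33 and 10.44 (day 8). It fell at day 6 and day 8, with differences of -0.85 ± 0.22 and -0.87 ± 0.22 (limma's adjusted p 0.0327 and 0.0291), and its arrays of a day lie close together throughout. RPA3 read 11.35 and 11.38 (day 0), 11.00 and 10.07 (day 4), 10.71 and 9.03 (day 6) and 9.79 and 9.22 (day 8). RPA3 was 3.63-fold lower at day 8 (-1.86 ± 0.57), next to GINS4 in size among all members, and stayed just outside the threshold (limma's adjusted p = 0.054). RPA1 was -0.26 at day 8.

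LIG1, the ligase that seals lagging-strand pieces (probe set 202726_at), was called at day 6 only. It read 9.58 and 9.77 (day 0), 9.51 and 9.35 (day 4), 9.06 and 8.82 (day 6) and 9.41 and 9.22 (day 8), with a difference of -0.73 ± 0.18 at day 6 (limma's adjusted p = 0.0308) and -0.36 ± 0.18 at day 8 (limma's adjusted p = 0.204). Both sorted arrays were below day 0 on all 3 days, but the difference between day 6 and day 8 did not pass. FEN1, the flap nuclease, read 12.79 and 12.82 (day 0), 12.42 and 11.79 (day 4), 12.30 and 11.53 (day 6) and 12.02 and 11.40 (day 8). It was lower on all 6 sorted arrays and missed the threshold at day 8 (-1.09 ± 0.34, limma's adjusted p = 0.0603); a second FEN1 probe set (204768_s_at), tested on its own, fell there, with a difference of -1.50 ± 0.41 (limma's adjusted p = 0.0432).

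Genes of nucleotide supply did not pass on any day. TYMS, which makes thymidylate (probe set 202589_at), read 12.49 and 12.45 (day 0), 13.68 and 13.00 (day 4), 13.58 and 12.79 (day 6) and 13.11 and 12.81 (day 8). It was above both day 0 arrays on all 6 sorted arrays, opposite to most members, with differences of 0.87 ± 0.31, 0.72 ± 0.31 and 0.49 ± 0.31 (limma's adjusted p 0.109, 0.154 and 0.3). Its second probe set above the filter (1554696_s_at) gave 0.81 ± 0.56, -0.14 ± 0.56 and -0.24 ± 0.56, with no pass and a change of sign after day 4. RRM2, the small subunit of ribonucleotide reductase, read 12.61 and 12.51 (day 0), 12.91 and 11.74 (day 4), 13.32 and 11.42 (day 6) and 12.24 and 11.67 (day 8). Its first array of day 6 is the highest of the 8 and its second the lowest, 1.90 apart. TK1, thymidine kinase, read 9.81 and 9.71 (day 0), 9.91 and 9.15 (day 4), 9.75 and 8.62 (day 6) and 9.07 and 8.69 (day 8). It was below day 0 on both day 8 arrays, and differences at day 8 were -0.60 ± 0.64 for RRM2 and -0.88 ± 0.41 for TK1 (limma's adjusted p 0.532 and 0.166).

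The E2F factors lay close to their day 0 levels, and neither passed on any day. E2F1 read 8.69 and 8.71 (day 0), 8.70 and 8.63 (day 4), 8.66 and 8.47 (day 6) and 8.53 and 8.60 (day 8). E2F2 read 7.68 and 7.81 (day 0), 7.94 and 7.81 (day 4), 7.81 and 7.67 (day 6) and 7.76 and 7.85 (day 8). Sorted and day 0 arrays overlap or nearly touch in both genes, and the day 8 differences were -0.13 ± 0.15 and 0.06 ± 0.13, with 95% intervals of -0.49 to 0.22 and -0.25 to 0.38 (limma's adjusted p 0.56 and 0.776).

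**Figure D3:**
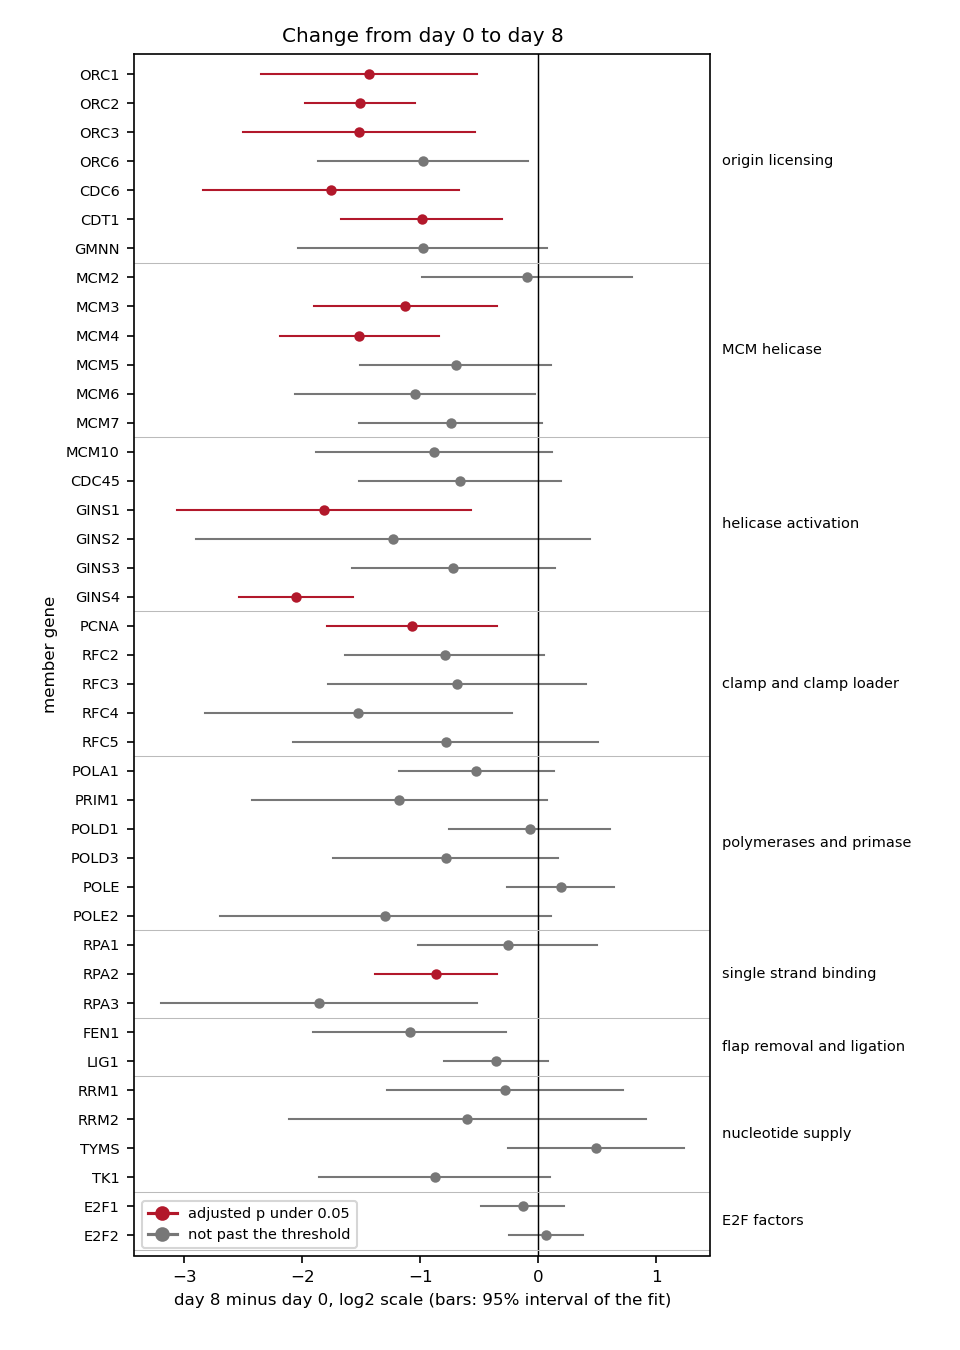
Points give day 8 minus day 0 on the log2 scale for the 41 members, ordered by role, and bars the 95% interval of the fit over 8 arrays; red marks the 11 members past the threshold. Points run from -2.06 for GINS4 to 0.49 for TYMS, and the 7 licensing genes at the top run from -1.76 to -0.98.

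Across the sorted days no member passed, and no gene of the 13647 did. At an unadjusted p under 0.05, limma had 1 member lower at day 6 than day 4, 2 lower at day 8 than day 4 and 0 between day 6 and day 8, beside 4.1%, 4.45% and 0.828% of all genes lower. The median differences of the members were -0.22, -0.40 and -0.20 for these 3 comparisons, and -0.04, -0.06 and -0.02 for all genes. The members' order of levels over the sorted days is therefore not settled by these arrays.

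The 2 arrays of day 4, and those of day 6, disagreed in most members. Replicate 2 was lower than replicate 1 in 38 of 41 members at day 4 and 39 of 41 at day 6, with median gaps of -0.87 and -0.79, where the medians over all genes tested were -0.12 and -0.07. Replicate 2 was more than 2-fold lower in 12 members at day 4 and 15 at day 6, beside 4.1% and 5.37% of all genes, and more than 2-fold higher in no member. At day 0 the median gap of the members was -0.03, and at day 8 it was -0.27, with no gap over 2-fold on either day. Members with narrow gaps at day 4 and day 6 include ORC2, RPA2, LIG1, POLE and both E2F genes, and in GINS4, GINS1 and MCM4 replicate 2 was the higher array of day 4.

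**Figure D4:**
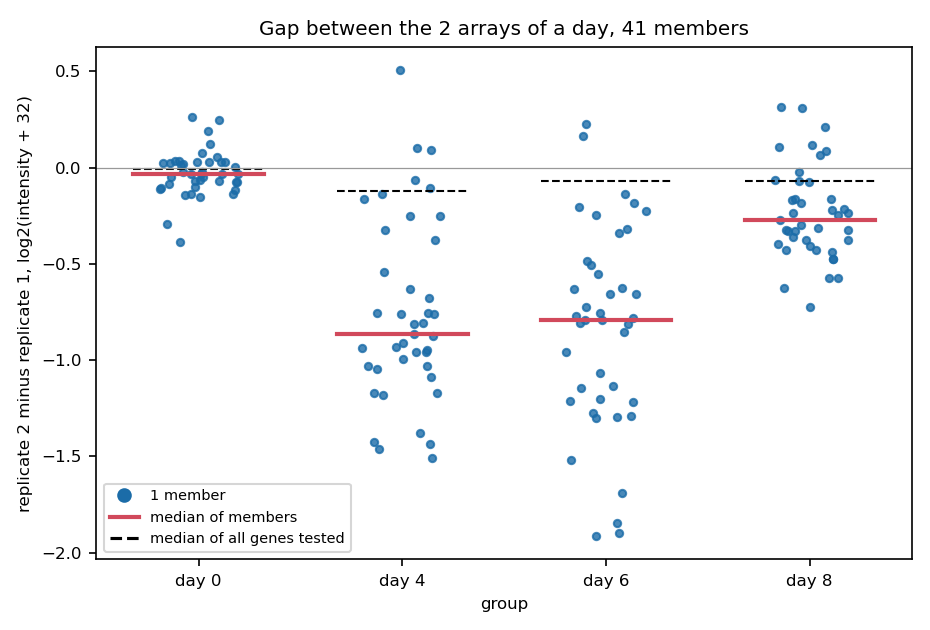
Points are the 41 members and the vertical axis is replicate 2 minus replicate 1 of the same day in log2(intensity + 32); red lines are the members' median and dashed lines the median of all genes tested. The red line lies at -0.03 for day 0, -0.87 for day 4, -0.79 for day 6 and -0.27 for day 8.

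Set against the day 0 mean, the median member was level with it on replicate 1 of day 4 and -0.93 on replicate 2 of day 4, -0.24 and -1.19 on the arrays of day 6, and -0.73 and -1.04 on those of day 8. Members below both day 0 arrays numbered 19, 39, 30, 39, 37 and 37 on those 6 arrays, where 39.5%, 49.5%, 46.8%, 50.4%, 47.9% and 51.1% of all genes tested were. Replicate 1 of day 4 was thus the 1 sorted array whose median member lay at the day 0 level, and 15 members were above both day 0 arrays there, beside 53.1% of all genes tested. Replicate 1 of day 4 and replicate 1 of day 6 were the 2 highest of the 6 sorted arrays in 29 of 41 members (70.7%), against 29.3% of all genes tested. They were the 2 highest in all 5 clamp genes and all 4 nucleotide supply genes.

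Other features moved with the same 2 arrays. The ACTB 3′ to 5′ probe ratio, a common check of RNA integrity, was 19.0 on replicate 1 of day 4 and 31.0 on replicate 1 of day 6, 9.18 and 16.0 on their partners, and 8.92, 10.4, 9.91 and 15.1 on the arrays of day 0 and day 8. The GAPDH ratio differed less between partners, with 2.22 and 2.15 at day 4 and 3.73 and 3.41 at day 6, but it was higher on every sorted array than the 1.71 and 1.91 of day 0, with 2.41 and 3.08 at day 8. Its part in the differences from day 0 was not tested. All 7 stromal markers had these 2 arrays as the 2 highest sorted arrays, and their summed intensity was 18996 and 14553 there against 9944 and 6287 on the partners, 10153 and 8812 on the day 8 arrays, and 24788 and 24406 on those of day 0. None of the 7 stromal markers was below the array median on these arrays, while TAGLN and DCN were on the second arrays of all sorted days. Summed intensity of the 8 measured endoderm markers, of which 6 were tested, went the other way, 3160 against 23427 at day 4 and 697 against 7013 at day 6. The same sum was 1177 and 1151 on the day 0 arrays and 13461 and 10270 on those of day 8. The 11 endothelial markers summed to 46548 against 57016 at day 4 and 39432 against 62369 at day 6, where replicate 2 was more than 2-fold higher in 6 of 11 and the median gap was 1.03. The 9 measured blood markers summed to 1058 against 1173 at day 4 and 952 against 5274 at day 6. Replicate 2 of day 6 thus read higher than its partner in both sums and lower in 39 of 41 members. The part of cell makeup or RNA quality in the gaps of the members was not tested.

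Both of the next settings were chosen with results of these data in view. Replicate 1 of day 4 and day 6 was left out as the arrays that stood apart, on which most members read high, so more falls at day 4 and day 6 without them follow from that choice and support nothing. Leaving out replicate 2 of both days instead keeps the arrays on which most members read high. More members called lower at day 8 than at day 4 or day 6 there follow from that choice and support nothing either. Each setting leaves 1 array at day 4 and day 6, assumed to vary like the other groups. Without replicate 1 of both days, 29 members fell and TYMS rose at day 4, 35 fell at day 6, and 30 fell with a rise of TYMS at day 8, beside 20.9%, 26.9% and 29.7% of the 13425 genes tested that were called lower. Called higher were 14.5%, 18.4% and 20.7%. CDC6 then had a difference of -1.49 ± 0.18 at day 4 (limma's adjusted p = 0.00275) and MCM6 one of -1.04 ± 0.21 (limma's adjusted p = 0.0165). Leaving out replicate 2 of both days instead gave 5 falls with rises of RRM1 and TYMS at day 4, 12 falls with a rise of TYMS at day 6, and 30 falls with a rise of TYMS at day 8, beside 16%, 19.6% and 29.4% lower and 19.8%, 18.8% and 20.5% higher among 13564 genes. CDC6 at day 4 was -0.50 ± 0.18 and MCM6 0.01 ± 0.21 (limma's adjusted p 0.0823 and 0.985). In that second setting 24 members were called lower at day 8 than at day 4 and 18 lower at day 8 than at day 6, beside 13.7% and 10.9% of all genes, whereas the first setting called no member between sorted days, beside 0.0968% of all genes lower at day 8 than day 4.

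At day 8, where both arrays are kept in either setting, the differences are the same as before and the count moves with the estimated spread. ORC2 and GINS4 kept their day 8 call under every setting run, whereas the other 9 were lost without an array of day 0 or day 8.

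**Figure D5:**
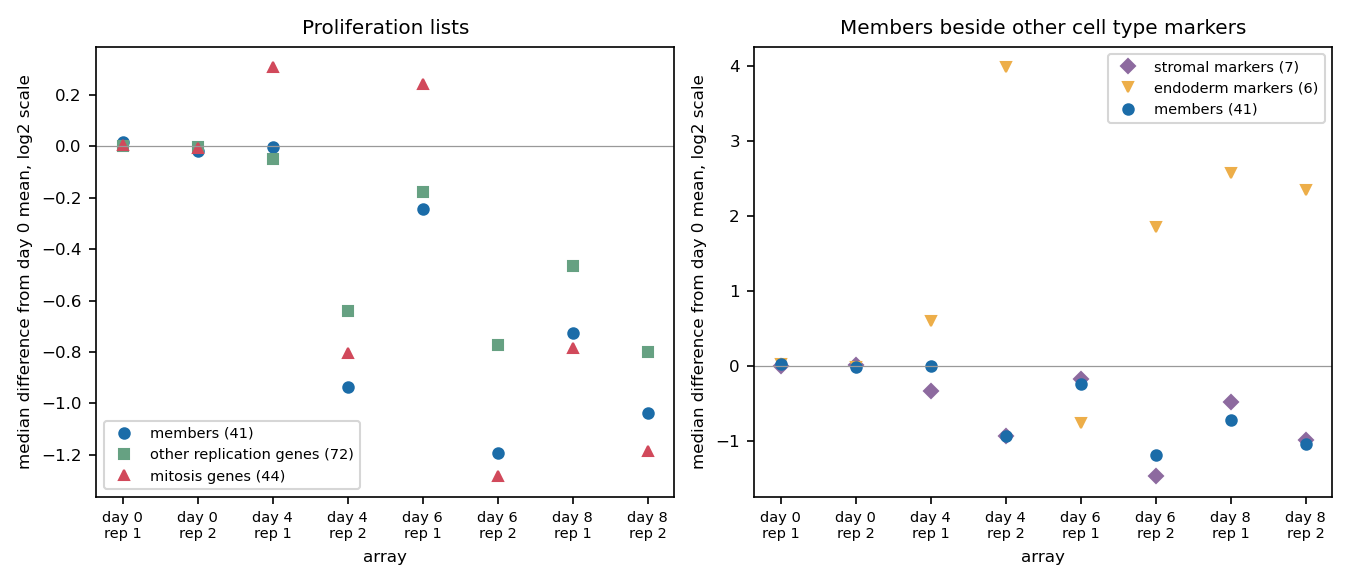
The vertical axis is the median over a gene list of log2(intensity + 32) minus the day 0 mean, for each of the 8 arrays. On the left members, other replication genes and mitosis genes are higher on replicate 1 of day 4 and day 6 than on the 4 other sorted arrays. On those 2 arrays only the mitosis genes lie above the day 0 mean, at 0.31 and 0.24. On the right stromal and endoderm markers are shown beside the members. Stromal medians are -0.34 and -0.18 on those 2 arrays and -0.93 and -1.47 on their partners, and endoderm medians are 0.60 and -0.77 against 3.98 and 1.85.

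Other genes of DNA replication, chosen by function with earlier results of these data known, were counted beside the members. Of 78 listed, 72 were tested. At day 4, 6 fell (8.33%) and 1 rose, beside 9.91% of all genes lower and 8.52% higher. At day 6 the counts were 9 (12.5%) and 1, beside 13.6% and 9.73%, and at day 8 they were 13 (18.1%) and 1, beside 14.1% and 10.4%. The shares that fell at day 4 and day 6 are thus close to those of all genes. Medians on the 3 days were -0.34, -0.50 and -0.62. The gene that rose on each day was RB1, the retinoblastoma protein that holds E2F in check, which read 10.20 and 10.22 (day 0), 12.12 and 12.29 (day 4), 12.43 and 12.02 (day 6) and 12.29 and 12.17 (day 8). It was higher by 2.02 ± 0.19 at day 8 (4.07-fold, limma's adjusted p = 0.000505), with both arrays of each day close together. SAMHD1, an enzyme that breaks down deoxynucleotide triphosphates, fell 5.69-fold, 10.7-fold and 5.45-fold on the 3 days, and its replicate 1 of day 6 lay below the array median. HELLS, a chromatin remodeller, read 12.40 and 12.56 (day 0), 10.10 and 10.62 (day 4), 10.82 and 9.84 (day 6) and 10.43 and 10.36 (day 8), and fell, with a difference of -2.09 ± 0.34 at day 8 (limma's adjusted p = 0.00548). MSH6 (mismatch repair), WDHD1 (a replisome scaffold), NASP (a histone chaperone) and TFDP2 (a partner of E2F) fell on every day. Their day 8 differences were -1.15 ± 0.17, -2.19 ± 0.38, -1.54 ± 0.28 and -1.58 ± 0.29. Replicate 2 was lower at day 4 and day 6 here too, with median gaps of -0.59 and -0.71.

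Mitosis genes gave few calls and wide gaps between replicates. Of 44 genes none was called at day 4 or day 6, where limma had 1 and 2 lower at an unadjusted p under 0.05, and 2 fell at day 8 (4.55%). Of all genes tested 9.91%, 13.6% and 14.1% fell on these days. The list's medians were -0.22, -0.43 and -1.01. The 2 that fell were BUB1B, which read 12.74 and 12.65 (day 0), 12.19 and 11.36 (day 4), 11.94 and 11.06 (day 6) and 11.22 and 10.96 (day 8), and BUB1, which read 11.16 and 11.09 (day 0), 10.41 and 9.09 (day 4), 10.47 and 8.58 (day 6) and 8.91 and 8.66 (day 8), both of the spindle checkpoint. They fell at day 8, with differences of -1.60 ± 0.36 and -2.34 ± 0.65 (limma's adjusted p 0.0202 and 0.0403). The median gap between replicates was -1.10 at day 4 and -1.47 at day 6, and replicate 1 of those days gave the 2 highest sorted arrays in 42 of 44 genes.

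G1 regulators changed in both directions. Of 9 tested genes, CDKN1B, an inhibitor of cyclin-dependent kinases, and CCND3, a D-type cyclin, rose on every sorted day. CDKN1B read 11.03 and 10.94 (day 0), 12.07 and 11.81 (day 4), 11.76 and 11.78 (day 6) and 11.75 and 11.55 (day 8), and rose by 0.66 ± 0.17 at day 8 (limma's adjusted p = 0.0305). CCND3 rose by 1.40 ± 0.27 (limma's adjusted p = 0.0104). CDKN2B, an inhibitor of CDK4 and CDK6, was called lower on each sorted day, with a difference of -1.33 ± 0.0646 at day 8. It lay near the array median at day 0 and below it on all 6 sorted arrays, so its size is uncertain. It also passed the filter only through day 0, where it read high. The filter thus fixed the direction of its calls, which lend no support to a fall. No G1 gene had replicate 1 of day 4 and day 6 as its 2 highest sorted arrays. CDKN1A, another inhibitor, fell at day 4 and day 6, with differences of -0.97 ± 0.27 and -1.50 ± 0.27 (limma's adjusted p 0.0497 and 0.00858).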

How the data were processed

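Gene expression was measured on 8 Affymetrix arrays of Trizol-extracted RNA, 2 for each of 4 groups, grouped by sample titles. The authors deposited 1 linear intensity per probe set and array. The submitters' processing notes name MAS5, with no version, and the steps of summary and scaling are not given in the sources used here. Array medians lie between 88.7 and 93.2. No detection calls were used. A shift common to most genes would be removed by such scaling.

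Intensities were used as log2(intensity + 32), which understates folds of dim genes, with no further scaling. Of 54675 probe sets 41091 had 1 gene symbol. A gene was tested if 2 or more of 8 arrays put it over their median, with limma 3.58.1 in R 4.3.3, in 1 model of group means on all arrays with a trended eBayes prior and Benjamini-Hochberg adjustment over 13647 genes, two-sided, called at 0.05. Degrees of freedom were 4 residual and 2.84 prior, and the script was tested on simulated data. The number of arrays limits precision.

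Members and lists were chosen with earlier results of these data known. Array values were given for members called in any comparison and, per role, for the 2 with the widest gap between group means and the 1 with the widest replicate gap; of other replication genes up to 6, and of mitosis and G1 genes up to 3, called genes per comparison were eligible. Alternatives covered the offset, filter, scaling, probe set choice, the trend, the samples fitted, the replicate block and left-out arrays. Promoter windows came from RefSeq, GRCh38.p14. Figures used Python 3.11.15 and matplotlib 3.10.9.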

Additional observations from a re-analysis of the deposited data

How the results depend on the processing

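Against the 3, 6, 11 and 11 members called at day 4, day 6, day 8 and in the mean of the sorted groups, the fit with a replicate block called 5, 14, 19 and 17, beside 22.3%, 28.4%, 31.1% and 35.6% of all genes. The labels give no shared culture or day for a replicate number, and deviations of same-numbered arrays correlated at 0.60 between day 4 and day 6, 0.407 between day 6 and day 8 and 0.188 between day 4 and day 8, but at -0.025, 0.02 and 0.024 between day 0 and the later groups, so the numbers were not taken as pairs. With replicate 1 left out at both day 4 and day 6 the counts were 30, 35, 31 and 37, and with replicate 2 left out at both they were 7, 13, 31 and 21, with 24 between day 8 and day 4 and 18 between day 8 and day 6. Other counts that moved by over 1.5 times were 10 at day 6 with every probe set tested on its own, and at day 8 7 with no filter and 31 in a fit of the day 0 and day 8 arrays alone. Leaving out 1 array in turn gave 1 to 6 members at day 4, 1 to 16 at day 6, 2 to 16 at day 8 and 2 to 19 in the mean, with each lowest count found among the fits without an array of day 0 and each day 6, day 8 and mean maximum without replicate 1 of day 6. No member was called between sorted days in these fits. Where no share of all genes called stands beside a count, the count shows only how the calls depend on the setting.

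The members' median difference changed sign only between sorted days: day 6 against day 4 was 0.19 without replicate 1 of day 4 and 0.22 without replicate 2 of day 6, and day 8 against day 6 was 0.26 without replicate 1 of day 6, alone or with that of day 4. Over single arrays left out these 2 medians ranged down to -0.61 and -0.62. No called member reversed. Its call was lost in 7 of 60 values at day 4, 21 of 119 at day 6, 47 of 219 at day 8 and 41 of 219 in the mean; GINS4 lost none. All 41 members were above the median of every array.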
